A study of Mus musculus with 4 samples.

Results

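The 10 genes described here belong to the MHC class I pathway and were measured in single immune cells of the aged mouse cortex. They are H2-K1, H2-D1, H2-Q7, B2m, Tap1, Tap2, Tapbp, Nlrc5, Psmb8 and Psmb9. They were taken by name as the class I, immunoproteasome and peptide transport genes of interest, and all 10 were among the 16798 genes of the count table. MHC class I molecules show peptides from inside a cell to CD8 T cells and are read by natural killer (NK) cells. The proteasome cuts proteins into peptides, the TAP transporter carries them into the endoplasmic reticulum, tapasin helps to load them onto a heavy chain paired with beta-2-microglobulin, and the complex then goes to the surface. Interferons raise the transcription of most of these genes in many cell types, and microglia, the resident macrophages of the brain, are known for low class I in the healthy brain and more of it near amyloid plaques.

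The cells were CD45+ cells sorted from the cortex at 18 months of age and read with a 10x Genomics 3′ single-cell kit, which counts molecules (UMIs) near the end of each transcript. ADAM mice carried the APP/PS1 transgenes, which cause amyloid deposits, and lacked the receptor tyrosine kinases Axl and Mertk (Axl-/- Mertk-/-). AD mice carried APP/PS1 alone, so that both genotypes carry the amyloid transgenes. There were 2 libraries per genotype, each from 2 pooled cortices, and p-values below measure the spread between these pools.

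The table held 15451 cells, 14628 of them with 1 of 9 cell classes given by the authors and 9077 of the microglia class with 1 of 7 numbered states. Libraries held 3241 to 4543 cells and 14963857 to 29831947 UMIs, with a median of 3704 to 5457 UMIs per cell. Axl stood at 5.23 and 5.28 CPM (UMIs per 1000000 UMIs of the summed cells) in ADAM, against 72.7 and 58.1 CPM in AD. Wherever a genotype has 2 values, they are those of its libraries 1 and 2. Mertk, whose 3′ tag need not lie in the deleted part, was at 191 and 182 CPM in ADAM, against 183 and 245 CPM in AD. The labelled classes carried their defining markers: 8 T and NK cell markers summed to 6159 to 6729 CPM in T and NK cells and 10.3 to 21.4 CPM in microglia. The 6 microglia markers summed to 10770 to 13892 CPM in microglia and 275 to 434 CPM in T and NK cells. ADAM 2 stood apart by red-cell transcripts in its microglia (0.612 and 4498 CPM in ADAM, against 0 and 0.138 CPM in AD) and by neutrophil transcripts. AD 1 stood apart by choroid plexus transcripts in its microglia (0.748 and 69.6 CPM in ADAM, against 693 and 1.24 CPM in AD). Of 15427 distinct cell barcodes, 24 occurred in more than 1 library.

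In GENCODE vM21 on GRCm38 (mm10), 8 of the 10 genes lie within 1.53 Mb of chromosome 17, the mouse MHC, between 33915899 and 35443773. From one end to the other these are Tapbp (33915899 to 33929292), H2-K1 (33996017 to 34000347, minus strand), Psmb9 (34181987 to 34187764, minus strand), Tap1 (34187553 to 34197225), Psmb8 (34197721 to 34201454), Tap2 (34203527 to 34216321), H2-D1 (35262730 to 35267499) and H2-Q7 (35439155 to 35443773). B2m lies on chromosome 2 (122147686 to 122153083), 6.55 Mb from the deleted gene Mertk, and Nlrc5 on chromosome 8 (94434356 to 94527272). Because UMIs are read near the 3′ end, sequence of that end that also occurs in transcripts of another gene can affect the counts. The 50-base windows in the last 400 bases of a gene's transcripts were looked for anywhere in transcripts of all other genes. Of its windows, H2-K1 shared 10.2% with other genes, mostly H2-D1. H2-D1 shared 10.1% with other genes, and 3.99% with H2-K1. Tapbp shared 4.56% with Zbtb22, Tap1 3.53% with Tap2, and H2-Q7 0.513% with H2-Q10. The other 5 genes shared none. Whether such reads were counted, and for which gene, is uncertain, most of all between H2-K1 and H2-D1.

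The promoters of the 3 heavy chains and of B2m are shown because class I genes are known to be read from a shared upstream module, which NLRC5 and interferon-responsive factors act on. Windows are RefSeq's on GRCm38.p6, from 250 bases before to 50 bases after the start, and 8 of the 10 genes matched one, with Tap2 and Nlrc5 not analysed here. Capitals mark matches, on either strand, to GGATTCC (the core of an NF-kB site), AANNGAAA (an IRF site), TGACG (the CRE core) and CCAAT. The 4 windows are at chr17:34000298-34000597 (minus strand, the first of 2 windows) for H2-K1, chr17:35262844-35263143 for H2-D1, chr17:35438905-35439204 for H2-Q7 and chr2:122147437-122147736 for B2m.
H2-K1: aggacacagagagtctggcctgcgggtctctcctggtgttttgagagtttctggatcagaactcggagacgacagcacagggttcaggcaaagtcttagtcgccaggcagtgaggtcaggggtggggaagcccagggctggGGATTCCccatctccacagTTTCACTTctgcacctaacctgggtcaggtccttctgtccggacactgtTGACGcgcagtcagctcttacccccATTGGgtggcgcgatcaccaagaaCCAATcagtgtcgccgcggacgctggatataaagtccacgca
H2-D1: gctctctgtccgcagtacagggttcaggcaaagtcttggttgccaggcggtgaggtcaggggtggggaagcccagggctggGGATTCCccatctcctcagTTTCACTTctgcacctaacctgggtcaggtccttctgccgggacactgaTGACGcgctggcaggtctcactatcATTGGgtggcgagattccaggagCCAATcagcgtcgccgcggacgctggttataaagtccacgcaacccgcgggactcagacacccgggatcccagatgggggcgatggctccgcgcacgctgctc
H2-Q7: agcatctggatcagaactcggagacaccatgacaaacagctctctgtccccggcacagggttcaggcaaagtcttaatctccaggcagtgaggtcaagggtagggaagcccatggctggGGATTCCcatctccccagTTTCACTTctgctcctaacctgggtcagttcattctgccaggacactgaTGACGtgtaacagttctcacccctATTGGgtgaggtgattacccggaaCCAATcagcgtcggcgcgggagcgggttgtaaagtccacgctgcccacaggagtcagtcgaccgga
B2m: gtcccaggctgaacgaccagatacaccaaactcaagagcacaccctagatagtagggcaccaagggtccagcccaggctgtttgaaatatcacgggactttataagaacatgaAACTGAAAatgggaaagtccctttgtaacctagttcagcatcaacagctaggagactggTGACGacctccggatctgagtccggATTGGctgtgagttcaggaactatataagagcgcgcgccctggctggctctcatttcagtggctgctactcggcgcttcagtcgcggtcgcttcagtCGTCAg
In the 3 heavy chains the NF-kB letters, the IRF letters, TGACG and CCAAT followed each other in the same order, with NF-kB beginning at base −109 in H2-K1, −169 in H2-D1 and −131 in H2-Q7. IRF letters began at −90, −150 and −113 in the same genes, and TGACG at −41, −101 and −64. B2m had the IRF letters at −137, TGACG at −78 and 45, and CCAAT at −53, with no NF-kB match in this window. Matches did not overlap each other in any of the windows. Of 32851 RefSeq windows, 3.79% held the NF-kB letters, 23.9% the IRF letters, 20.8% TGACG and 37.4% CCAAT. Psmb9 and Tap1 are read in opposite directions from windows that share 275 bases, which held TGACG and CCAAT, and the Psmb8 window held none of the 4 motifs.

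Levels across cell sets are given as CPM of the summed UMIs of each library, as mean ± SD over the 4 libraries of both genotypes (n = 4). The authors formed classes and states from the same cells and genes, so these levels are a description with no test. Endothelial cells and oligodendrocytes, with as few as 3 cells in a library, are left out, which leaves 13 sets.

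Among the heavy chains, the peptide-binding subunits, H2-K1 was highest in T and NK cells at 3081 ± 277 CPM, with every library above those of B cells (1998 ± 455 CPM), the next set. It was lowest in state 3 microglia (537 ± 117 CPM), while state 0, the next above, had 825 ± 99.5 CPM and overlapped with it. H2-D1 was at 3412 ± 681 CPM in neutrophils, 3125 ± 306 CPM in T and NK cells and 3102 ± 613 CPM in monocytes, 3 sets whose libraries overlapped. Its lowest levels were in state 3 (1330.3 ± 125 CPM) and state 0 (1329 ± 191 CPM), and no neighbours in its order were separate. H2-Q7, which encodes the Qa-2 antigen, spread most: it had 912 ± 48.2 CPM in T and NK cells, without overlap with proliferating cells (400.2 ± 221 CPM), and 18.7 ± 5.57 CPM in state 3. That state held 25 UMIs of H2-Q7 in all. Within each library, T and NK cells had 21.9 to 36 times the H2-Q7 level of microglia, 3.11 to 3.95 times for H2-K1 and 1.73 to 2.04 times for H2-D1.

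B2m, the invariant light chain, did not share this order. It was highest in state 4 (4103 ± 89.2 CPM), state 3 (4049.6 ± 160.0 CPM) and state 5 (3733 ± 242 CPM) microglia and lowest in B cells (2257 ± 149.9 CPM), with neighbours overlapping throughout. T and NK cells had 0.868 to 1.0 times the microglial B2m level in the 4 libraries.

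The TAP subunits differed from each other in where they were high. Tap1 had 161 ± 74.7 CPM in monocytes, 139 ± 6.0 CPM in T and NK cells and 116 ± 18.1 CPM in state 1 microglia, with a wide spread in monocytes that is taken up below. Tap2 had 136 ± 12.7 CPM in T and NK cells and 119 ± 37.2 CPM in state 2. Both were lowest in state 3, at 17.3 ± 15.7 CPM for Tap1 and 34.1 ± 12 CPM for Tap2. The Tap1 level there rested on 3 and 4 UMIs in ADAM and 8 and 4 UMIs in AD, and that of Tap2 on as few as 5. Tapbp, which encodes tapasin, was at 249 ± 32.6 CPM in state 1, 217 ± 69.2 CPM in monocytes, 151 ± 6.12 CPM in T and NK cells and 95.9 ± 16.8 CPM in state 3. T and NK cells thus had 0.872 to 0.931 times the microglial level of Tapbp, against 3.58 to 3.8 times for Tap1 and 2.01 to 2.64 times for Tap2.

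Nlrc5, the transactivator of class I promoters, had 45 ± 4.22 CPM in T and NK cells, above every library of monocytes (21.5 ± 11.3 CPM), and 3.2 ± 2.45 CPM in state 3. State 3 held 4 UMIs of Nlrc5 in all. The immunoproteasome subunits Psmb8 (LMP7) and Psmb9 (LMP2) take the place of constitutive catalytic subunits. Their highest means were in T and NK cells, at 1024 ± 34.9 CPM for Psmb8 and 385 ± 26.4 CPM for Psmb9. Both overlapped there with the next set, monocytes for Psmb8 (751 ± 334 CPM) and proliferating cells for Psmb9 (334 ± 118 CPM). Both subunits were lowest in state 2 microglia, at 131 ± 21.9 CPM for Psmb8, below every library of state 3 (253 ± 16 CPM), and 58.6 ± 22.8 CPM for Psmb9. State 2 cells were shallow, with a median of 808.5 to 886.5 UMIs and as few as 3 UMIs of Psmb9 in a library. They held red-cell markers at 169838 CPM in ADAM 2 and choroid plexus markers at 61628 CPM in AD 1, and the part of these in the level was not tested.

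**Figure D1:**
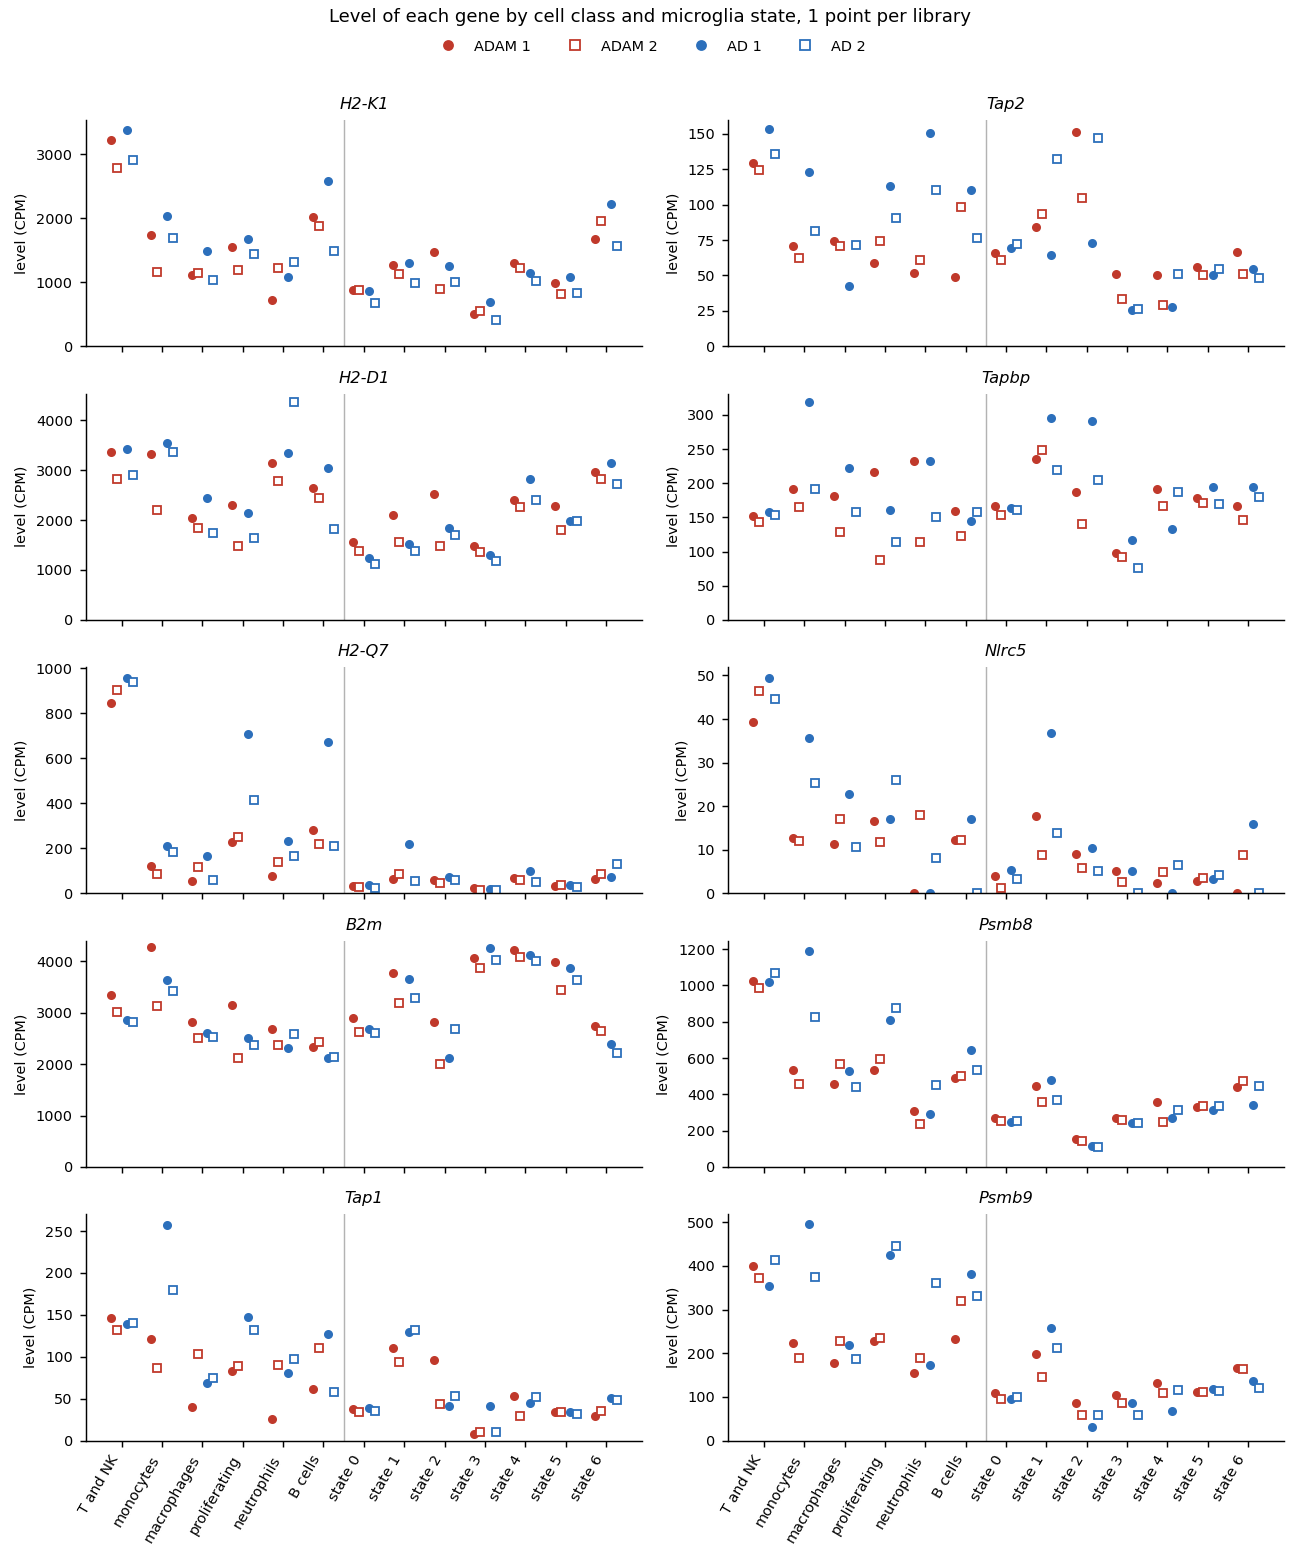
Level in CPM (linear axis from 0) of each gene in 6 cell classes, left of the grey line, and 7 microglia states, right of it, with 1 point per library (ADAM 1, ADAM 2, AD 1, AD 2). T and NK cells have the highest mean for H2-K1, H2-Q7, Nlrc5, Psmb8 and Psmb9, B2m has its highest means in states 4, 3 and 5, and monocytes show the 2 AD libraries above the 2 ADAM libraries for Tap1, Nlrc5, Psmb8 and Psmb9.

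The other 6 microglia states are set against state 0, which held at least 766 cells in each library, and stood apart from it in different genes of the pathway. State 1 had 2.74 to 3.75 times the Tap1 level of state 0 in the 4 libraries, 4.33 to 7.12 times for Nlrc5, 1.53 to 2.7 times for Psmb9 and 1.28 to 1.52 times for H2-K1. Nlrc5 rested there on 8 and 3 UMIs in ADAM and 4 and 7 UMIs in AD, and in state 0 on as few as 7 UMIs (ADAM 2). State 1 held as few as 19 cells in a library. Interferon-response transcripts were also high in this state. The 10 such genes summed to 3049.9 and 3017 CPM in ADAM, against 4324 and 2979 CPM in AD, and to 94.1 to 159 CPM in state 0. State 5 had 1.29 to 1.76 times the H2-D1 level of state 0 and 1.31 to 1.44 times the B2m level, while state 4 had 1.53 to 2.28 times its H2-D1 level, 1.46 to 1.55 times its B2m level and 1.92 to 2.63 times its H2-Q7 level. State 3 combined a higher B2m level, 1.4 to 1.58 times that of state 0, with a lower H2-K1 level, 0.577 to 0.799 times. State 6 had 1.91 to 2.59 times the H2-K1 level of state 0, from as few as 9 cells in a library, and state 2 0.433 to 0.579 times its Psmb8 level.

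The balance between the 2 classical heavy chains also varied by set. H2-K1 made up 49.1 to 50.2% of the summed H2-K1 and H2-D1 UMIs in T and NK cells, 43.3 to 46% in B cells, 40.2 to 46.8% in proliferating cells, 33.7 to 37.6% in microglia, 25.5 to 34.8% in state 3 and 18.7 to 30.6% in neutrophils. T and NK cells were thus the set nearest to equal UMIs of both. Some 3′ end windows of each gene also occur in transcripts of the other, so the share compares sets rather than the 2 genes.

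For the proteasome, each immune subunit was set against the constitutive subunit whose place it takes. Psmb8 UMIs were 6.28 to 7.17 times those of Psmb5 in T and NK cells and 2.4 to 2.64 times in microglia. Psmb9 UMIs were 2.6 to 2.91 times those of Psmb6 in T and NK cells and 0.618 to 0.757 times in microglia. Psmb10, the third immune subunit and not 1 of the 10 genes, was at 4.45 to 6.02 times Psmb7 in T and NK cells and 1.56 to 1.93 times in microglia. For all 3 pairs, every T and NK library lay above every microglia library. Within microglia the pairs differed in direction between states 0 and 5. Psmb9 to Psmb6 was 0.518 to 0.576 in state 5 and 0.721 to 0.87 in state 0, while Psmb8 to Psmb5 was 2.69 to 2.93 in state 5 and 2.19 to 2.45 in state 0, both without overlap. The lower ratio did not come with a lower Psmb9 level, which was 1.02 to 1.23 times that of state 0. Psmb6 had means of 203 CPM in ADAM and 214 CPM in AD in state 5, against 132 and 127 CPM in state 0 (after TMM scaling within each state). Psmb10 to Psmb7 was 1.57 to 1.89 in state 5 and 1.52 to 1.96 in state 0, with overlap.

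**Figure D2:**
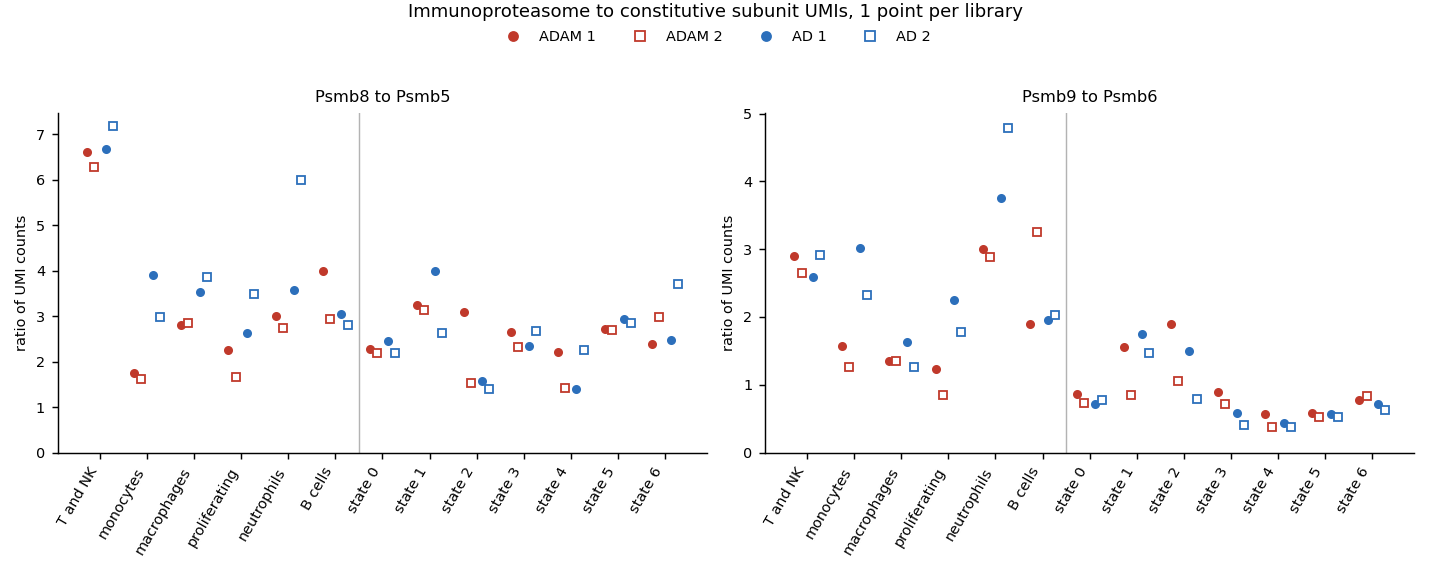
Ratio of UMIs of each immunoproteasome subunit to its constitutive counterpart (linear axis from 0) by cell class and microglia state, with 1 point per library. Psmb8 to Psmb5 lies between 6.28 and 7.17 in T and NK cells, and in monocytes at 1.75 and 1.61 in the ADAM libraries, below 3.91 and 2.99 in the AD libraries.

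Shares of cells with at least 1 UMI were compared after thinning each cell to 2000 UMIs, since depth differed between classes. Microglia had a median of 5472 and 5698.5 UMIs in ADAM and 4719.5 and 6170 in AD. T and NK cells had 3406 and 3416 in ADAM and 2925.5 and 3547.5 in AD. Thinning left out shallower cells, 247 and 258 microglia in ADAM and 164 and 186 in AD. Of T and NK cells it left out 71 and 79 in ADAM and 161 and 70 in AD. In T and NK cells the shares with H2-Q7, with exact binomial 95% intervals that cover counting error only, were 75% (71.3 to 78.4) and 82.4% (79.2 to 85.2) in ADAM, against 79.8% (77 to 82.4) and 79.7% (76.6 to 82.5) in AD. In microglia the H2-Q7 shares were 6.47% (5.45 to 7.62) and 6.88% (5.76 to 8.15) in ADAM, against 5.43% (4.32 to 6.73) and 4.56% (3.84 to 5.39) in AD. All T and NK libraries lay above all microglia libraries, and unthinned shares were 88.8 to 93.1% in T and NK cells and 13.9 to 17.3% in microglia. Nlrc5 was found in 6.92 to 9.52% of thinned T and NK cells and 0.222 to 1.04% of thinned microglia, and unthinned in 12.8 to 15.9% and 1.8 to 2.58%. Tap1 was found in 20.4 to 31.7% of thinned state 1 cells and 6.16 to 9.1% of thinned state 0 cells, and unthinned in 42.1 to 52.7% and 16.6 to 21.5%. Oligodendrocytes, the class with the lowest mean level of 9 of the 10 genes (all but Nlrc5), give a coarse limit on free RNA, since there were 23 of them in all. They held 0 UMIs of H2-Q7 among 123297, which allows up to 13% of cells (3 counts) and 24.3 CPM. The exact 95% interval of that share ran to 14.8%, above the lowest unthinned H2-Q7 share of microglia, 13.9%. Microglia had 26.1 to 43.7 CPM of H2-Q7. State 3, at 13.2 to 25.7 CPM, and state 0 in AD 2, at 22.9 CPM, reached below 24.3 CPM. Nlrc5 and Tap1 were each found in 1 of the 23 cells (4.35%, exact 95% interval 0.11 to 21.9), a range that holds the unthinned shares of Nlrc5 in microglia and in T and NK cells and of Tap1 in state 0. The limit is too coarse to set those shares apart from free RNA.

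Across 9 sets (the 10 sets tested below, without pooled microglia), the pattern of each gene was set against the mean of the other 9 on the log2 CPM scale. Pearson's r, which shares libraries and depths across points and is a description, was 0.95 for H2-K1, 0.93 for H2-Q7 and Tap1, 0.92 for Nlrc5, 0.86 for Psmb9, 0.81 for Psmb8, 0.77 for H2-D1 and 0.68 for Tap2. Tapbp, at 0.28, and B2m, at −0.33, did not follow the others. The 9 genes most like the mean of all members among 5666 genes whose log2 CPM averaged 4 or more were Sp100 (r = 0.988), Arhgap9 (0.987), B4galnt1 (0.979), Mrps9 (0.971), Dusp2 (0.97), Anxa11 (0.965), Esyt1 (0.959), Agfg1 (0.959) and Mbd2 (0.955). Of the first 10 by Pearson's r, 2 were among the first 10 by Spearman's correlation.

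The study then asks how the loss of Axl and Mertk changes these cells beside amyloid. For this, UMIs summed per library and set were tested with edgeR's quasi-likelihood test, with libraries as replicates, and a gene was called at a Benjamini-Hochberg adjusted p under 0.05 over all genes of the set. Levels in the comparisons of genotypes are CPM after TMM scaling, and folds are log2, ADAM over AD, with their standard error (SE). The 10 sets in which each library held 20 or more cells were tested. State 1, state 6, neutrophils and B cells fell under that number. In sums of cells, fewer cells with a transcript and less of it per cell cannot be told apart.

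In microglia the log2 folds of the 10 genes lay between −0.27 and 0.22 and none was called, where 0.0419% of the 11924 genes tested were. Neither DESeq2 nor limma-voom called a member in any of the 10 sets. H2-D1 had 1869.6 and 1704 CPM in ADAM, against 1693 and 1378 CPM in AD, both ADAM libraries above both AD libraries (log2 fold 0.22, SE 0.147, edgeR adjusted p = 1.0). H2-K1 had 949.9 and 936 CPM in ADAM, against 1021 and 716 CPM in AD, which overlap (log2 fold 0.12, SE 0.177, edgeR adjusted p = 1.0). B2m had 3332 and 3167 CPM in ADAM, against 3279.7 and 2887 CPM in AD, also with overlap (log2 fold 0.076, SE 0.133, edgeR adjusted p = 1.0). The classical heavy chains and their light chain thus had folds of at most 0.22, and H2-Q7, at 36.9 and 39.4 CPM in ADAM, against 43.5 and 25.3 CPM in AD, had a fold of 0.18 (SE 0.275). Without AD 2 the folds were −0.12 for H2-K1, −0.19 for H2-Q7 and −0.016 for B2m, so the sign of these 3 rested on that library.

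For loading, Tap1 had 39 and 36.5 CPM in ADAM, against 38.7 and 35.8 CPM in AD. Tap2 had 63.7 and 59.3 CPM in ADAM, against 57.9 and 65.7 CPM in AD. Tapbp had 172 and 168 CPM in ADAM, against 179.7 and 159 CPM in AD. These 3 genes overlapped between genotypes, with folds of 0.024 (SE 0.11), −0.011 (SE 0.112) and 0.0032 (SE 0.121) that turn sign with the setting, Tap1 and Tapbp also without TMM scaling. Nlrc5, few of whose molecules were read, had 4.01 and 3.05 CPM in ADAM, against 5.11 and 3.66 CPM in AD (fold −0.27, SE 0.287). Psmb8 had 299 and 308 CPM in ADAM, against 282 and 273 CPM in AD, with both ADAM libraries above both AD libraries (fold 0.13, SE 0.118). Psmb9 had 113 and 109.7 CPM in ADAM, against 107 and 103 CPM in AD, likewise without overlap (fold 0.083, SE 0.109). Of the 10 genes, 3 had both ADAM libraries above both AD libraries and 0 below, beside 14.1% and 13.3% of all genes tested. Without TMM scaling 1 gene, Psmb8, lay above and 0 below, beside 8.26% and 20.3%. None reached an unadjusted p of 0.05 (2.35% of all genes), and the median fold was 0.079, against 0.0035 over all genes. Without AD 2 the median was −0.026, with 4 of 10 folds positive, so its sign also rested on that library. It was 0.048 without ADAM 1 and 0.13 without AD 1. With state 2 left out, the state with the red-cell markers of ADAM 2 and the choroid plexus markers of AD 1 given above, the median fold was 0.084 and 0 were called.

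State 0, the largest state, had higher values of H2-K1 and H2-D1 in both ADAM libraries, short of the test. H2-K1 had 893 and 923 CPM in ADAM, against 822 and 671 CPM in AD, without overlap (log2 fold 0.28, SE 0.141, edgeR adjusted p = 0.998). H2-D1 had 1593 and 1449 CPM in ADAM, against 1181 and 1115 CPM in AD in this state, also without overlap (log2 fold 0.41, SE 0.139, edgeR adjusted p = 0.946). H2-Q7, the third heavy chain, had 34.5 and 31.9 CPM in ADAM, against 36.3 and 22.7 CPM in AD, with overlap and AD 1 the highest. None of the 10 was called, with 0.101% of 10912 genes called, and H2-D1 was the single member with an unadjusted p under 0.05 (4.22% of all genes). Both ADAM libraries lay above both AD libraries for 5 genes and below for 0, beside 16.4% and 16.1% of all genes. Without TMM scaling H2-K1 and H2-D1 lay above and Tap2 below, beside 8.71% and 27.9%. The median fold was 0.13, against 0.07 without ADAM 1 and 0.08 without AD 1. State 5 had H2-Q7 at 35.1 and 38.1 CPM in ADAM, against 40.2 and 26.6 CPM in AD (log2 fold 0.17, SE 0.176, edgeR adjusted p = 0.994), with overlap. Its folds were 0.03 (SE 0.129) for H2-D1 and −0.085 (SE 0.144) for H2-K1, and 0 of 10 were called beside 0.153% of 10436 genes, or reached an unadjusted p of 0.05 beside 5.3%. Both ADAM libraries lay above for 1 gene and below for 1, beside 16.9% and 16.7%. A fit over both states with library as a term gave a fold in state 5 minus that in state 0 of −0.37 (SE 0.128, edgeR adjusted p = 0.189) for H2-K1 and −0.39 (SE 0.138, edgeR adjusted p = 0.208) for H2-D1. Neither passed, beside 1.02% of 11132 genes that did.

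In the smaller states none of the tested genes of the list was called either. State 2 had 9 of the 10 tested, with 0.0635% of 3150 genes called. Both ADAM libraries lay above for 3 and below for 1, beside 15.2% and 15% of all genes. Its Psmb9 level was 98 and 83.6 CPM in ADAM, against 39.8 and 64.3 CPM in AD, without overlap (log2 fold 0.70, SE 0.496, edgeR adjusted p = 1.0). That level rested on 19 and 20 UMIs in ADAM and 3 and 11 UMIs in AD. State 3 had 7 tested, with 0.313% of 3191 genes called, and both ADAM libraries above for 4 and below for 1, beside 16.9% and 15.9%. Tap2 there was at 53.8 and 36.1 CPM in ADAM, against 26.8 and 28.3 CPM in AD, also without overlap (log2 fold 0.69, SE 0.465, edgeR adjusted p = 0.999). This Tap2 level rested on 20 and 13 UMIs in ADAM and 5 and 10 UMIs in AD. State 4 had 9 tested, with 0.127% of 3938 genes called, and both ADAM libraries above for 1 and below for 1, beside 15.3% and 15.2%. Its H2-D1 level was 2577 and 2424 CPM in ADAM, against 3023 and 2685 CPM in AD, with ADAM below AD (log2 fold −0.19, SE 0.19, edgeR adjusted p = 1.0). No member reached an unadjusted p of 0.05 in these 3 states, beside 3.05%, 4.95% and 3.35% of all genes in states 2, 3 and 4. The median fold of the tested members was 0.23 in state 2, 0.15 in state 3, 0.0019 in state 4 and −0.0062 in state 5. These medians moved with single libraries. In state 2 the median was 0.031 without ADAM 1, 0.35 without ADAM 2 and 0.39 without AD 1. In state 3 it was 0.099 without ADAM 1, 0.33 without AD 1 and 0.025 without AD 2. With each library left out in turn it ran from −0.22 (without ADAM 1) to 0.16 (without ADAM 2) in state 4 and from −0.085 (without ADAM 1) to 0.038 (without AD 1) in state 5, so that its sign in both rested on single libraries. Without TMM scaling 2, 4, 1 and 0 members lay above in states 2, 3, 4 and 5, beside 10.6%, 16.8%, 17.4% and 17.4% of all genes, and 1, 0, 0 and 1 below, beside 17.1%, 15.8%, 13% and 16.3%.

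T and NK cells, the set with the highest mean H2-K1, H2-Q7, Nlrc5, Psmb8 and Psmb9 levels of the 13, had no member past the test. B2m had 3359 and 3039.5 CPM in ADAM, against 2848 and 2824 CPM in AD, with both ADAM libraries above both AD libraries (log2 fold 0.17, SE 0.123, edgeR adjusted p = 0.999). H2-Q7 had 854 and 912 CPM in ADAM, against 955 and 943 CPM in AD, which do not overlap (fold −0.10, SE 0.124). H2-K1 had 3255 and 2811 CPM in ADAM, against 3378 and 2931 CPM in AD, with overlap (fold −0.057, SE 0.132). None of the 10 was called beside 0.241% of 9533 genes, or reached an unadjusted p of 0.05 beside 5.2%. The median fold was −0.051, and both ADAM libraries lay above for 1 gene and below for 3, beside 16.3% and 16.5% of all genes (the same counts without TMM scaling, beside 15.4% and 17.5%). Without ADAM 2 the median was 0.015, and without AD 2 −0.091. Set against microglia in a fit with library as a term, no gene of the list had a fold that passed as different (edgeR adjusted p = 1.0 for each), beside 0.194% of 11880 genes. In macrophages, 0 of 10 were called beside 0.0154% of 6483 genes, or reached an unadjusted p of 0.05 beside 2.21%. Both ADAM libraries lay above for 1 and below for 0, beside 14.9% and 14.3%. Tap2 there had 76.5 and 75.5 CPM in ADAM, against 44.7 and 73 CPM in AD, without overlap (log2 fold 0.30, SE 0.314, edgeR adjusted p = 1.0). Without TMM scaling Tap2 overlapped, at 74.3 and 70.6 CPM in ADAM, against 42.5 and 71.5 CPM in AD, and 0 members lay above or below, beside 14.4% and 14.9%. Red-cell markers summed to 1.14 and 13750 CPM in ADAM, against 0 and 0 CPM in AD in this class. The median member fold was −0.067, and with each library left out ran from −0.22 (without AD 2) to 0.19 (without ADAM 1).

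**Figure D3:**
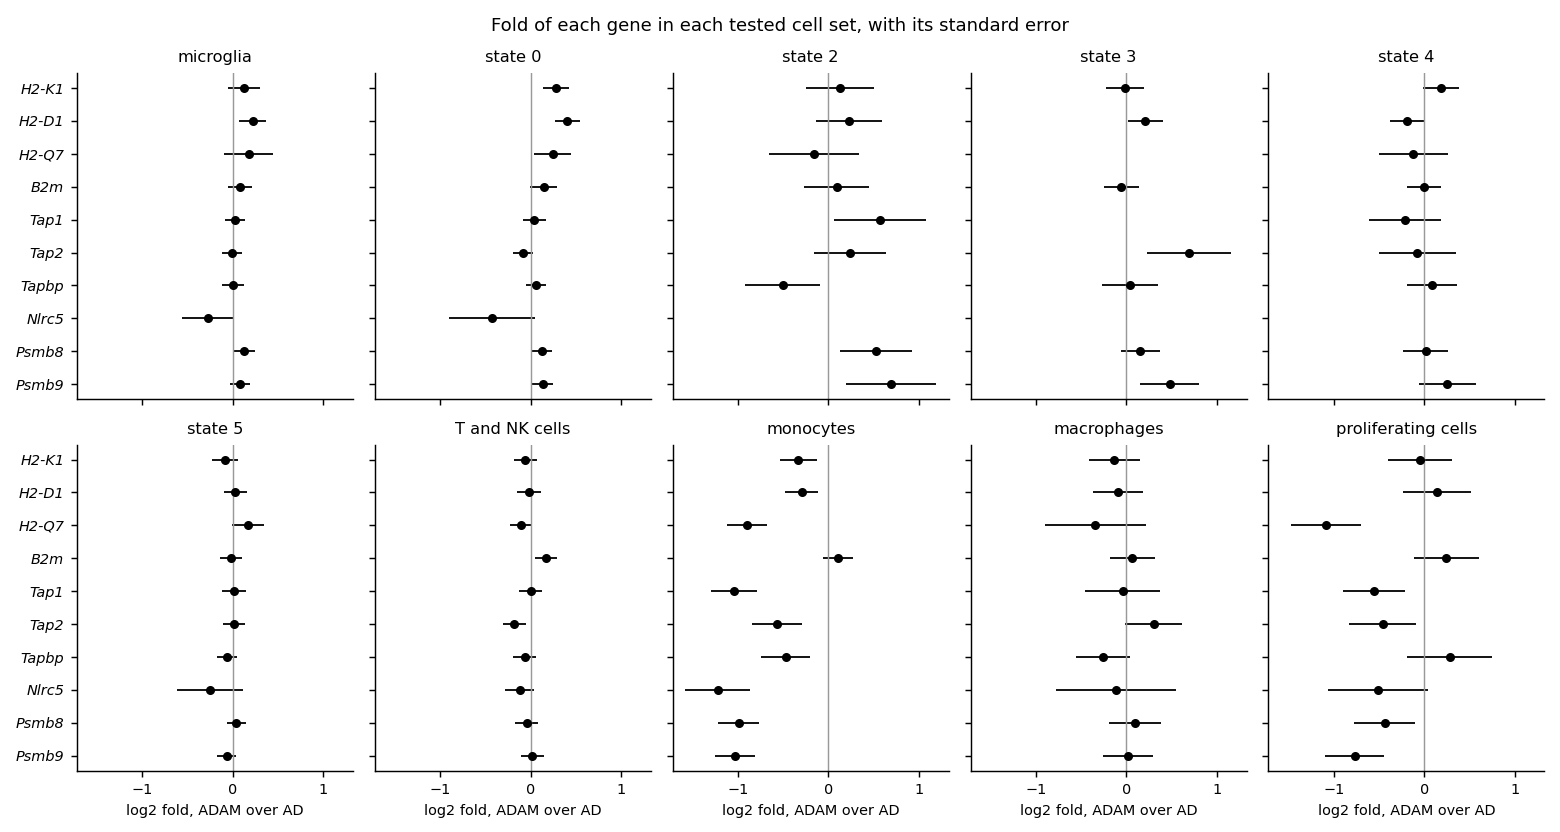
Log2 fold, ADAM over AD, of each gene in the 10 tested sets, as points with bars of 1 standard error from edgeR, and no point where a gene was not tested. Folds in microglia lie between −0.27 and 0.22, while 9 of 10 in monocytes are negative, down to −1.22 for Nlrc5.

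Monocytes, blood-derived cells that enter the brain, had the largest median fold of the 10 sets, with the ADAM libraries lower. Psmb9 had 217 and 210.3 CPM in ADAM, against 506 and 372 CPM in AD (log2 fold −1.04, SE 0.222, edgeR adjusted p = 0.16). Psmb8 had 517 and 508 CPM in ADAM, against 1217 and 821 CPM in AD (log2 fold −0.99, SE 0.228, edgeR adjusted p = 0.196). For both immunoproteasome subunits each ADAM library lay below each AD library, with AD 1 the highest. Tap1 had 117 and 97.1 CPM in ADAM, against 263 and 179 CPM in AD (log2 fold −1.05, SE 0.253, edgeR adjusted p = 0.223). H2-Q7 had 119 and 95.5 CPM in ADAM, against 216 and 182 CPM in AD (log2 fold −0.90, SE 0.223, edgeR adjusted p = 0.24). Nlrc5 had 12.4 and 13.4 CPM in ADAM, against 36.4 and 25.3 CPM in AD (log2 fold −1.22, SE 0.361, edgeR adjusted p = 0.338). These 3 genes also had no overlap, and AD 1 lay above AD 2 in each.

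Tap2 had 68.2 and 69.7 CPM in ADAM, against 125 and 80.9 CPM in AD (fold −0.57, SE 0.274). Tapbp had 186 and 184 CPM in ADAM, against 326 and 190.5 CPM in AD (fold −0.48, SE 0.271), where AD 2 was near the ADAM libraries. H2-D1 had 3214 and 2446 CPM in ADAM, against 3609.9 and 3347 CPM in AD, both ADAM libraries below (fold −0.30, SE 0.184). The folds of these 3 genes were thus smaller than those of Psmb8 and Psmb9. H2-K1 had 1687 and 1296 CPM in ADAM, against 2077 and 1685 CPM in AD (fold −0.33, SE 0.203). B2m had 4146 and 3496 CPM in ADAM, against 3711 and 3405 CPM in AD (fold 0.10, SE 0.164). These last 2 genes overlapped between the genotypes. After thinning to 2000 UMIs, Psmb9 was found in 38.1 and 32.2% of monocytes in ADAM, against 60.5 and 50% in AD. For H2-Q7 the shares were 20.9 and 15.2% in ADAM, against 31.6 and 29.3% in AD. For Tap2 they were 10.1 and 9% against 17.1 and 18.5%, and for Nlrc5 2.16 and 1.9% against 6.58 and 3.26%. Tap1 shares overlapped, at 25.2 and 19% in ADAM, against 27.6 and 25% in AD. These shares were not tested.

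None of the 10 was called by edgeR, which called 0.155% of the 6460 genes tested. At an unadjusted p under 0.05 there were 5, all lower in ADAM (Psmb8, Psmb9, Tap1, H2-Q7 and Nlrc5), beside 8.51% of all genes, and 4.71% lower. Both ADAM libraries lay below both AD libraries for 8 of 10 and above for 0, beside 19.9% and 18.3% of all genes (7 and 0 without TMM scaling, where Tapbp overlapped, beside 21.5% and 14.1%), and the median fold was −0.73, against 0.00031 over all genes. Without ADAM 2, the library rich in neutrophil transcripts, the median fold was −0.65, with Psmb8 at −0.97 and Psmb9 at −1.0. Without AD 1 the median fold was −0.45, and Psmb8, Psmb9 and Tap1 had folds of −0.67, −0.79 and −0.73. Without ADAM 1 the median fold was −0.77. With no filter on low counts 4 members were called, H2-Q7, Tap1, Psmb8 and Psmb9, beside 2.12% of all genes.

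**Figure D4:**
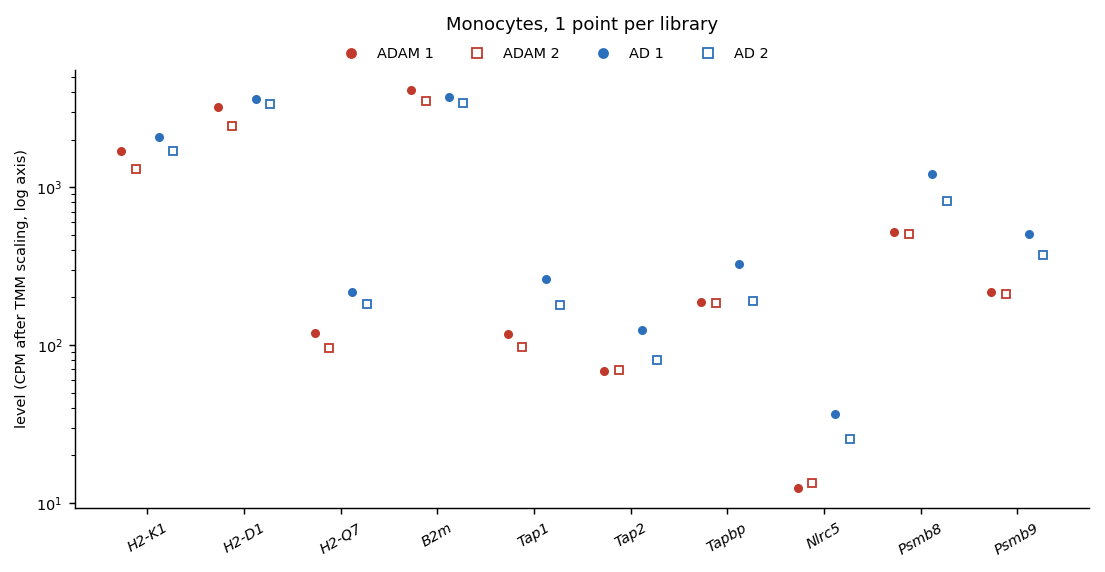
Level of each gene in monocytes in CPM after TMM scaling (log axis), with 1 point per library. The ADAM libraries lie below the AD libraries for 8 genes, among them Psmb8 at 517 and 508 CPM in ADAM, against 1217 and 821 CPM in AD, and overlap with them for H2-K1 and B2m.

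The monocyte class was not made up alike in the 4 libraries. It held 148 and 220 cells in ADAM, against 91 and 104 cells in AD. Their median depth was 5655.5 and 8723 UMIs in ADAM, against 5775 and 5634 UMIs in AD. The 5 neutrophil markers summed to 4188 and 70372 CPM in ADAM, against 143 and 2045 CPM in AD, with Ly6g at 0 in ADAM 1, AD 1 and AD 2 and S100a9 at 0 in AD 1. The 4 monocyte markers (Ly6c2, Ccr2, Plac8 and Chil3) summed to 5123 and 10465 CPM in ADAM, against 12756 and 11297 CPM in AD, and none was at 0, while they summed to 11.7 to 47.1 CPM in microglia. ADAM 2 thus carried most of the neutrophil transcripts and ADAM 1 the fewest monocyte transcripts. A Ly6c2 UMI, the mark of classical monocytes, was found in 32 of 148 (21.6%) and 130 of 220 cells (59.1%) in ADAM, against 73 of 91 (80.2%) and 64 of 104 cells (61.5%) in AD. T and NK markers summed to 16 and 39.9 CPM in ADAM, against 61.4 and 10.1 CPM in AD, a small part of their sum in T and NK cells.

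Subsets chosen after the data were seen bear on this makeup. Leaving out cells with over 1% of their UMIs on the 5 neutrophil markers kept 145 and 100 cells in ADAM, and 91 and 100 cells in AD. Psmb8 then had 545 and 581 CPM in ADAM, against 1269.9 and 855 CPM in AD, a fold of −0.91 (SE 0.207, edgeR adjusted p = 0.0442). Psmb9 had 222 and 194 CPM in ADAM, against 527 and 394 CPM in AD, a fold of −1.14 (SE 0.214, edgeR adjusted p = 0.0179). These 2 genes were called, beside 2.3% of 6009 genes, and their folds were about as large as in all monocytes. Tap1 had a fold of −0.90 (SE 0.237, edgeR adjusted p = 0.0801) and H2-Q7 of −0.79 (SE 0.213, edgeR adjusted p = 0.0919).

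Among cells with a Ly6c2 UMI, Psmb8 had 492 and 441 CPM in ADAM, against 1209 and 867 CPM in AD, a fold of −1.16 (SE 0.218, edgeR adjusted p = 0.0683). H2-Q7 had a fold of −1.41 (SE 0.282, edgeR adjusted p = 0.0808) there, Psmb9 of −0.99 (SE 0.24, edgeR adjusted p = 0.123) and H2-K1 of −0.78 (SE 0.206, edgeR adjusted p = 0.175). H2-K1, which overlapped in all monocytes, had 1053 and 912 CPM in ADAM, against 1975 and 1392 CPM in AD in these cells, without overlap. Among cells without one, Psmb9 had 230.2 and 253 CPM in ADAM, against 537 and 461 CPM in AD, a fold of −1.03 (SE 0.236, edgeR adjusted p = 0.471). Psmb8 had 587 and 736 CPM in ADAM, against 1302 and 792 CPM in AD in them, where AD 2 was close to ADAM 2. The folds of Psmb8, Psmb9, Tap1 and H2-Q7 were negative on both sides of this division (Nlrc5 was not tested without Ly6c2). No member was called on either side. Of all genes, 11 of 4790 were called with Ly6c2 and 1 of 4556 without. Cells without Ly6c2 numbered 116 and 90 in ADAM, against 18 and 40 in AD. Presence of a Ly6c2 UMI also depends on depth, whose median among cells with one was 9867.5 and 11201 UMIs in ADAM, against 6236 and 6344 UMIs in AD.

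**Figure D5:**
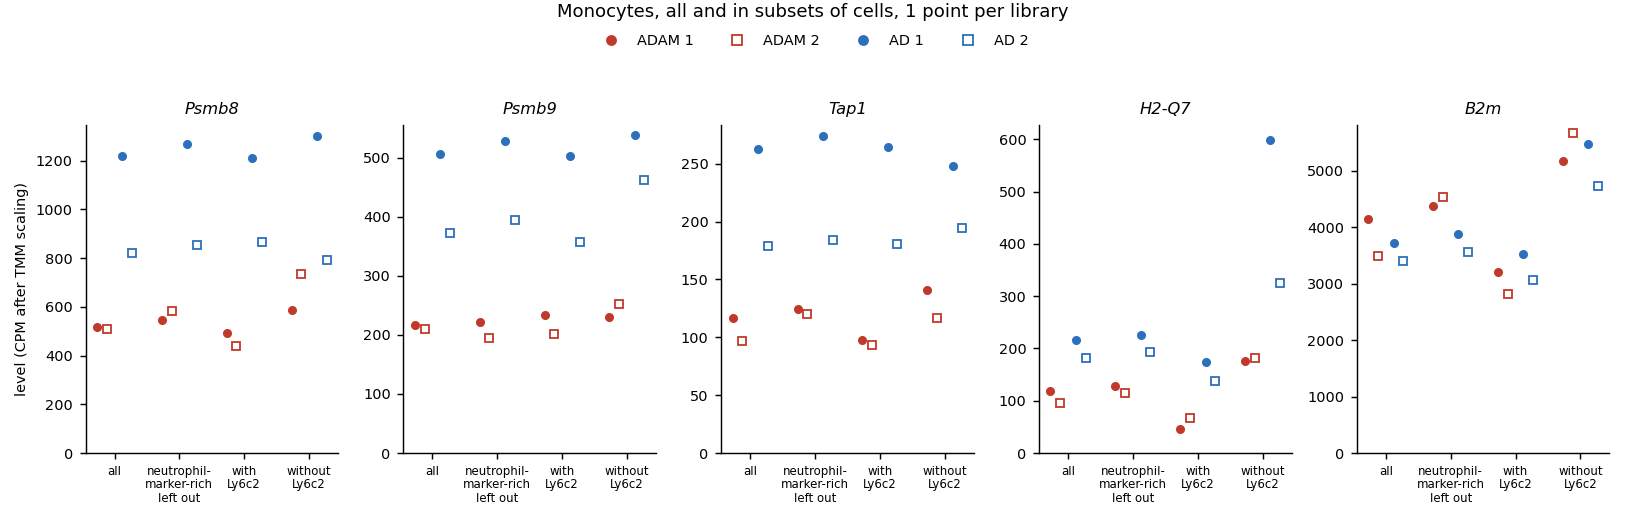
Level of Psmb8, Psmb9, Tap1, H2-Q7 and B2m in CPM after TMM scaling (linear axis from 0) in all monocytes, in those left when cells rich in neutrophil markers are taken out, and in those with and without a Ly6c2 UMI, with 1 point per library. Both ADAM libraries lie below both AD libraries for Psmb9 in each subset, as at 222 and 194 CPM in ADAM, against 527 and 394 CPM in AD, without the cells rich in neutrophil markers.

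The fold in monocytes was also set against that in microglia of the same libraries, a comparison added after the data were seen. The monocyte fold minus the microglial one was −0.99 (SE 0.211, edgeR adjusted p = 0.0548) for Psmb8 and −1.0 (SE 0.216, edgeR adjusted p = 0.0577) for Psmb9. For Tap1 it was −0.94 (SE 0.236, edgeR adjusted p = 0.12), and for H2-Q7 −1.0 (SE 0.255, edgeR adjusted p = 0.129). None of the 10 passed, beside 0.394% of 11416 genes, and the other 6 had adjusted p of at least 0.491. Psmb8 and Psmb9 passed with DESeq2 size factors, without scaling and with no filter. Tap1 and H2-Q7 passed with no filter (edgeR adjusted p = 0.0147 and 0.00815), but not with DESeq2 size factors or without scaling. These settings called 52 of 11416, 67 of 11416 and 195 of 16366 genes, against 45 of 11416 in the main fit. With 1 library left out, the difference ran from −1.22 (without AD 2) to −0.73 (without AD 1) for Psmb8. For Psmb9 it ran from −1.16 (without AD 2) to −0.81 (without AD 1).

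Interferon-response transcripts were also lower in ADAM in monocytes. The 10 genes summed to 466 and 409 CPM in ADAM, against 1420.5 and 1292 CPM in AD (without TMM scaling), and for 9 of 10 both ADAM libraries lay below both AD libraries, beside 21.5% of all genes on that scale. In the edgeR fit 2 of the 10 were called, Ifit2 (log2 fold −3.01, edgeR adjusted p = 0.0393) and Oasl2 (log2 fold −2.00, edgeR adjusted p = 0.0393), both lower, beside 0.155% of all genes. At an unadjusted p under 0.05, 9 were lower, beside 4.71% of all genes. Isg15, a ubiquitin-like protein induced by interferon, had 64.1 and 69.3 CPM in ADAM, against 297 and 222 CPM in AD. Oasl2 had 45.9 and 40.4 CPM in ADAM, against 202 and 154 CPM in AD, and Rsad2 overlapped. In microglia the same list summed to 213 and 254 CPM in ADAM, against 169 and 194 CPM in AD. Both ADAM libraries lay above for 8 of 10 genes, beside 8.26%, and none was called. At an unadjusted p under 0.05, 5 were higher, beside 2.35% of all genes in either direction. Within state 0 all 10 genes overlapped. Within state 5 both ADAM libraries lay above for 3 and below for 1, beside 17.4% and 16.3%. State 1, the state with the highest level of these transcripts, held 55 and 41 cells in ADAM, against 19 and 67 cells in AD. Its part in the sum over microglia was not tested. In T and NK cells the list summed to 589.8 and 497 CPM in ADAM, against 474 and 667 CPM in AD, with overlap. The sums also overlapped in macrophages, proliferating cells and B cells. In neutrophils, a class not tested, they were 593 and 798 CPM in ADAM, against 1890 and 3681 CPM in AD. ADAM 1 held 11 neutrophils. The part of interferon-response transcripts in the class I values was not tested.

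Other genes of the pathway were taken from a list of 35, of which 32 were in the table: further class I genes, the other proteasome subunits and activators, chaperones and peptidases, and regulators. In monocytes 29 were tested and 0 were called. At an unadjusted p under 0.05, 7 were lower and 0 higher, beside 8.51% of all genes, and 4.71% lower. Of the 29 folds 8 were positive, beside 50.1% of all genes, and the median was −0.31. H2-T23, which encodes the nonclassical molecule Qa-1, had 247 and 218 CPM in ADAM, against 649 and 501 CPM in AD (log2 fold −1.31, SE 0.219, edgeR adjusted p = 0.101). Stat2, a transcription factor of type I interferon signalling, had 19.6 and 17.2 CPM in ADAM, against 62.7 and 52.2 CPM in AD (log2 fold −1.65, SE 0.286, edgeR adjusted p = 0.101). These 2 had the smallest p of the list. Psme1, a subunit of the proteasome activator PA28, had 437 and 451 CPM in ADAM, against 866 and 612 CPM in AD. All 3 were lower in both ADAM libraries than in both AD libraries, as were H2-T22, Irf8 and H2-T24. They were named for their small p, so this separation adds no further support. Of all genes in monocytes, 19.9% lay below in this way. The constitutive subunits Psmb5, Psmb6 and Psmb7 overlapped between genotypes, except that Psmb6 without TMM scaling was at 142 and 149 CPM in ADAM, against 164 and 161 CPM in AD. The ratio of Psmb8 to Psmb5 was 1.75 and 1.61 in ADAM, against 3.91 and 2.99 in AD. Psmb9 to Psmb6 was 1.58 and 1.27 in ADAM, against 3.01 and 2.33 in AD, again with both ADAM libraries below.

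In microglia 32 genes of this list were tested, 0 were called or reached an unadjusted p of 0.05, 21 folds were positive and the median was 0.0089. In the other tested sets 0 were called, with medians between −0.12 and 0.10. At an unadjusted p under 0.05 there were Psmb10 in state 0 (higher), Canx, the chaperone calnexin, in T and NK cells (higher), H2-Q6 in macrophages (lower), and Calr, calreticulin (higher), and H2-Q6 (lower) in proliferating cells. Of all genes, 4.22%, 5.2%, 2.21% and 8.73% had such a p in these sets, in that order.

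Proliferating cells, a class of 63 and 52 cells in ADAM and 38 and 40 cells in AD, was the other set with lower values of some members. H2-Q7 had 249 and 272 CPM in ADAM, against 708 and 404 CPM in AD (log2 fold −1.09, SE 0.388, edgeR adjusted p = 0.44). Psmb9 had 246 and 258 CPM in ADAM, against 426 and 434 CPM in AD (log2 fold −0.77, SE 0.33, edgeR adjusted p = 0.551). Neither gene overlapped between the genotypes. None of the 10 was called beside 0.0842% of 7124 genes, and 2 reached an unadjusted p of 0.05 beside 8.73%. Both ADAM libraries lay below for 5 and above for 0 beside 20.1% and 19.6% (6 and 0 without TMM scaling, with Nlrc5, beside 26.5% and 13.7%), and the median fold was −0.45, and −0.28 without AD 2. Without ADAM 1 or without ADAM 2, H2-Q7 was called (folds −1.0 and −1.14, edgeR adjusted p = 0.017 and 0.00472), beside 10.3% and 10.5% of all genes.

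Markers of several other cell types also differed between the genotypes in this class. The 8 T and NK cell markers summed to 858 and 842 CPM in ADAM, against 3968 and 1917 CPM in AD, with Ncr1 at 0 in ADAM 1, AD 1 and AD 2 and Klrb1c at 0 in AD 2. The 4 B cell markers summed to 74.1 and 46.8 CPM in ADAM, against 281 and 606 CPM in AD, with Cd79a at 0 in both ADAM libraries and Ms4a1 at 0 in ADAM 2. The 6 microglia markers summed to 3376 and 1121 CPM in ADAM, against 4712 and 4538 CPM in AD. T and NK, B cell and microglia markers were thus all lower in both ADAM libraries. Monocyte markers summed to 383 and 4227 CPM in ADAM, against 1102 and 692 CPM in AD. Macrophage markers summed to 258 and 18.1 CPM in ADAM, against 0 and 28.1 CPM in AD. Both of these overlapped between the genotypes, with the ADAM libraries far apart. Neutrophil markers summed to 112 and 16476 CPM in ADAM, against 3.43 and 174 CPM in AD, with Ly6g at 0 in all but ADAM 2. Proliferation markers (Mki67, Top2a and Birc5) summed to 459 and 1064 CPM in ADAM, against 1503 and 1825 CPM in AD. The part of this makeup in the H2-Q7 and Psmb9 values was not tested.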

How the data were processed

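The values are raw UMI counts, as deposited by the authors, for 16798 genes in 15451 cells, and were not normalized. The authors' table of cells gives each cell's library, class, microglia state, doublet marks, UMI counts and percent of mitochondrial UMIs, and the deposited percent was not used to filter. Per the submitters' processing notes, mm10, Seurat 3.2.1.9002 and Cell Ranger 3.1.0 were used, and the sources used here give neither the cell filters nor the clustering. The 823 cells marked as doublets have no class, and 216 microglia and T cell doublets have no state and were left out of microglia. Replicates are libraries, 2 per genotype.

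Counts were summed per library over each class and state. Sets with at least 20 cells in every library were tested with edgeR 4.0.16 (R 4.3.3): TMM scaling, the edgeR expression filter at a minimum count of 10, a robust quasi-likelihood fit, no term but genotype, and adjustment by Benjamini and Hochberg over all genes of the set at 0.05. Folds of 2 sets were compared in 1 fit with library as a term. Levels across sets, marker sums and interferon sums are CPM without TMM scaling, and levels between genotypes are CPM after it. Cells were thinned to 2000 UMIs for shares, with exact 95% binomial intervals. With 2 libraries per genotype the smallest two-sided p of an exact permutation is 0.333, so no such test was used. Promoter windows are from RefSeq, positions and 3′ ends from GENCODE vM21.

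The members and lists were chosen with earlier results of these data known. Genes named are the 10 members, the member with the smallest p in each set, and pathway genes with the smallest p in monocytes or an unadjusted p under 0.05, and 1 gene that the rule names is not reported here. Alternatives were DESeq2 1.42.0 size factors or no scaling, no filter, DESeq2's test, limma-voom (limma 3.58.1), each library left out, a replicate block, cells under 1000 UMIs left out, and microglia without state 2 or with the T cell doublets. The monocyte subsets, the comparison of monocytes with microglia and a crossed block were added after the data were seen. The subset without Ly6c2 was fitted although AD 1 held 18 such cells. The edgeR fits were tested on simulated data. Other software was Python 3.11.15, numpy 2.4.6, pandas 2.3.3, scipy 1.17.1 and matplotlib 3.10.9.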

Additional observations from a re-analysis of the deposited data

How the results depend on the processing

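The number of members called stayed at 0 in microglia, states 0, 2, 3, 4 and 5, T and NK cells and macrophages under every alternative run. In monocytes it was 4 with no filter on low counts, 2 with cells rich in neutrophil markers left out and 0 to 4 when 1 library was left out. In proliferating cells it was 0 to 1 when 1 library was left out. The cause was not tested. Of all genes in monocytes, 10 were called, against 276 with no filter, 52 by DESeq2, 36 without scaling, 3 with a replicate block, 138 without the cells rich in neutrophil markers, 1 among cells without Ly6c2 and 0 by limma-voom, 0 to 274 with 1 library left out.

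Signs turned for small folds. In microglia, with the T cell doublets added, the folds of H2-Q7, Tap1 and Tapbp were −0.11, −0.0054 and −0.0012. Without scaling Tap1 was at −0.028 and Tapbp at −0.048, and limma-voom gave −1.8e-05 for Tapbp. With 1 library left out, microglial folds ran from −0.12 to 0.39 for H2-K1, −0.19 to 0.58 for H2-Q7, −0.016 to 0.16 for B2m, −0.036 to 0.071 for Tap1, −0.10 to 0.084 for Tap2 and −0.084 to 0.084 for Tapbp. In state 5 they ran from −0.28 to 0.13 for H2-K1, −0.15 to 0.19 for H2-D1 and −0.13 to 0.46 for H2-Q7, and in monocytes from −0.019 to 0.23 for B2m. B2m was at −0.13 in monocytes with Ly6c2, and Tapbp at 0.42 in those without. Without scaling, the median fold of all genes in proliferating cells was −0.11, and that of the members −0.58.

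Same-numbered libraries deviated together with a correlation between −0.28 and 0.11 over the 10 sets, so the numbers were not taken to pair libraries. With the replicate block 0 members were called in each set, and the median member fold in monocytes was −0.72. With the pairs crossed, 8, 0 and 9 genes were called in microglia, state 2 and macrophages, and 0 members. Depth limits Nlrc5 most, at 3.05 to 5.11 CPM in microglia.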
